A study of Homo sapiens with 8 samples.

Results

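Ribosome biogenesis factors are the nucleolar and nuclear proteins that transcribe, modify, cut and fold ribosomal RNA and assemble it with ribosomal proteins, without being part of the finished ribosome. A set of 47 genes for such factors was chosen by symbol, and all 47 were found among the 60676 genes of the deposited count table. RNA polymerase I transcribes the ribosomal RNA precursor in the nucleolus, small nucleolar ribonucleoproteins guide its chemical modification, and separate groups of factors mature the small and the large subunit. The pathway consumes much of a growing cell's energy, and many of its genes are known targets of the transcription factor MYC, which makes it a common readout of growth signalling in leukaemia.

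The libraries came from mice of a CLDX model engrafted with MOLM14, a human acute myeloid leukaemia line whose genotype is given as FLT3-ITD and MLLr (an internal tandem duplication in the FLT3 receptor and a rearranged MLL gene), so every group carries both lesions and every group derives from this 1 line. The mice received a ketogenic or a standard diet for 3 weeks and gilteritinib, an inhibitor of FLT3, or vehicle for 1 week. There were 8 libraries, 1 for each combination of tissue label, drug and diet. In the marrow libraries, human cells had been sorted on human CD45, and the other libraries were labelled as whole liver with mouse and human cells; the labels do not say how many animals a library holds.

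Library totals ran from 13605936 to 33611830 counts, and no group had a replicate, so p-values measure only the spread between these libraries. Within a label that spread was mostly the one shared across genes. It entered with a median of 47.4 degrees of freedom in marrow and an infinite number under the liver label. The gene itself gave 1 residual degree of freedom. A code in the sample titles, which may mark a batch, coincided with the tissue label, so the code and the tissue cannot be told apart. Of 14 hepatocyte markers, 8 to 11 were at 0 in each library, and their sum was 0.737 to 1.64 CPM (counts-per-million of the library total) in marrow and 1.32 to 2.06 CPM under the liver label. Leukaemia cell markers, 15 genes, summed to 3939 to 9193 CPM over the 8 libraries. The counted RNA of the libraries labelled liver therefore held next to no hepatocyte transcripts among human genes. In bulk libraries, fewer cells of a type and less RNA per cell cannot be told apart.

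The members differed in what lies at their promoters. The sequence CACGTG, the canonical E-box that MYC and related factors can bind, was searched in windows of 300 bases, from 250 bases before to 50 bases after each annotated start (RefSeq, GRCh38.p14). Since CACGTG reads the same on both strands, a single search covers both. Of the 39 members with a window, 17 held it, or 43.6%, against 11% of 14896 protein-coding genes with a window. The 17 were BYSL, DDX21, FBL, GAR1, GNL3, LTV1, LYAR, MRTO4, NOC3L, NOP10, NOP14, NOP2, PES1, RRP9, UTP20, UTP4 and WDR43. NOLC1, TCOF1, NOP58, RRP12, BOP1, RRS1, RRP1B and DDX18 have no window in the table. The following stretches of 30 bases are shown because they come from members called with the drug in marrow (RRP9, UTP20 and WDR43), from the member with the lowest p for the diet there (DDX21) and from the catalytic box C/D protein FBL; capitals mark the E-box, and each is written 5′ to 3′ on the gene's own strand.
RRP9 (chr3:51941892-51941921, minus strand): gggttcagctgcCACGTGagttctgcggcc
UTP20 (chr12:101280083-101280112, plus strand): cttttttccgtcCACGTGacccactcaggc
WDR43 (chr2:28894658-28894687, plus strand): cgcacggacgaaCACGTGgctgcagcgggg
DDX21 (chr10:68956604-68956633, plus strand): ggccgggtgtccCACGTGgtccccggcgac
FBL (chr19:39846356-39846385, minus strand): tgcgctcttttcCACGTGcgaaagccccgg
NOP10 was the member with E-boxes at 2 places, starting 170 and 11 bases before its start. The 250 bases before the start of NOP10 show their spacing, with both E-boxes in capitals.
NOP10 (chr15:34343137-34343386, minus strand): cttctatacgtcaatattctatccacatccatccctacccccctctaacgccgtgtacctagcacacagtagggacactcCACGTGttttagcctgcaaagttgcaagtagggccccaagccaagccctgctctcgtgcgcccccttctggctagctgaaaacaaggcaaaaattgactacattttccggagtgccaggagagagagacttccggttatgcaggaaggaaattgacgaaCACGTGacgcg
A match describes these letters only. With the drug in marrow, the 16 tested members with an E-box had a median log2 fold change of 0.15, with 2 called higher and 2 lower, and the 22 without had a median of 0.00, with 1 called higher. Among other protein-coding genes with a window, the 1150 with an E-box had a median of -0.03, with 18.7% called, and the 7864 without had a median of -0.06, with 20.5% called. The difference between members with and without an E-box was not tested.

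Levels per exon length (RPKM, here CPM scaled with TMM factors and divided by kilobases of merged exon) spanned a wide range. NPM1, a nucleolar chaperone of ribosome assembly, stood first at a mean of 353 RPKM over the 8 libraries, with a lowest value of 325, above the highest value of any other member. It was followed by the H/ACA protein NOP10 at 227 RPKM, the methyltransferase FBL at 200.1 and nucleolin (NCL) at 162, whose ranges over libraries overlapped from each to the next. The H/ACA protein NHP2 came next at 76.7 RPKM, its range clear of NCL above it and of DDX21 below it. From DDX21 at 52.5 RPKM down to DDX10 at 4.34, each member's range overlapped that of the next, except at NOP14 over DDX56 and UTP4 over RRP1B. At the low end stood UTP20 at 3.39 RPKM, the polymerase subunit POLR1A at 2.99, TCOF1 at 2.31, UTP15 at 2.29 and PPAN at 2.14.

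**Figure D1:**
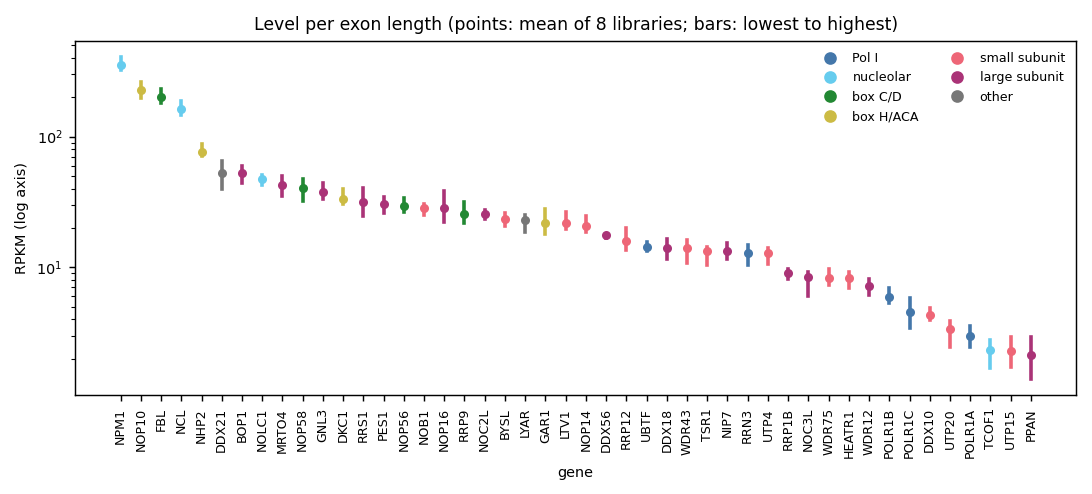
Level per exon length of 46 members (RPKM on a log axis; points are means of 8 libraries, bars run from the lowest to the highest library, colours give the role). NPM1 at 353 RPKM lies above all others, and most neighbours from DDX21 downward overlap.

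NOP2, a methyltransferase of the large subunit's RNA, had only 1 to 4 counts in each library and passed no count filter, so 46 of the 47 members were tested. In GENCODE 29, 54.4% of its exon bases lie under AC006064.6, a protein-coding gene on the same strand that had 0 counts. PPAN, a large subunit factor with 915 counts in all, shares 56.0% of its exon bases in the same way with PPAN-P2RY11, also at 0 counts. The levels of NOP2 and PPAN are uncertain for this reason, and whether reads in the shared exons were dropped was not tested. RRN3 has 3 named pseudogenes whose counts add to 14.0% of its own, and NPM1 has 45 adding to 4.72%. On the other strand, LGALS8 covers 23.2% of the exon bases of HEATR1 and had 12046 counts against 12790. Without a known strand setting the count of HEATR1 is uncertain.

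The members' spread over the libraries was near that of other genes. Their summed CPM lay between 5903 and 6936 in the 8 libraries, lowest in marrow with gilteritinib and ketogenic diet and highest in the library labelled liver with the same treatments. The median standard deviation of a member's log2 CPM over the 8 libraries was 0.15, against 0.16 for tested genes at a mean log2 CPM of 4 or more, and 17 of 46 members lay above that value. After TMM scaling, 22 of 46 members had their highest level in the library labelled liver with gilteritinib and ketogenic diet, where 13.6% of all 14749 tested genes had theirs. In marrow with gilteritinib and ketogenic diet, 11 members had their lowest level, where 16.2% of all genes had theirs. Of these 11, 7 were among the 13 small subunit factors (WDR43, WDR75, UTP15, UTP20, HEATR1, BYSL and TSR1). With library totals in place of TMM factors, that library held the lowest value of 23 members and of 26.2% of all genes.

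**Figure D2:**
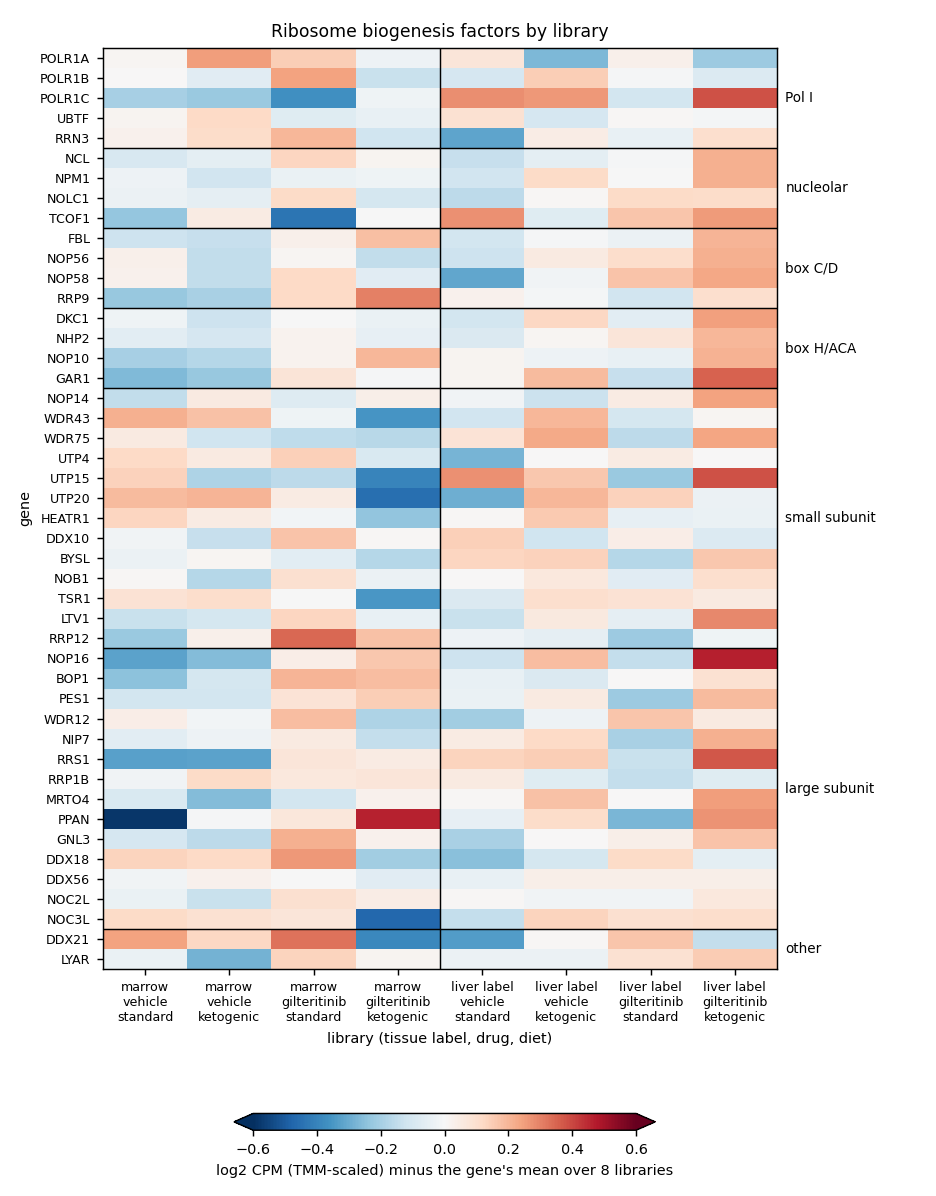
Each row is a member, grouped by role, and each column a library; colour gives log2 CPM (TMM-scaled) minus that gene's mean over the 8 libraries. The column for the library labelled liver with gilteritinib and ketogenic diet is the highest for 22 of 46 members, and several small subunit factors are lowest in marrow with gilteritinib and ketogenic diet.

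The drug was compared first, within the sorted marrow cells. Of 46 members, 8 changed: 6 rose (RRP9, NOP16, RRS1, BOP1, RRP12 and NOP10) and 2 fell (UTP20 and WDR43), by edgeR's quasi-likelihood test with drug and diet as terms and Benjamini-Hochberg adjustment over all genes, at an adjusted p under 0.05. That is 17.4% of the members, where 20.3% of all 14029 tested genes were called, 10.5% higher and 9.82% lower. The share of members called was thus close to the background. The median log2 fold change of the members was 0.04, against -0.01 for all tested genes, and their standard deviation of 0.22 compares with 0.49 for all genes. The median standard error was 0.12 for members and 0.16 for all genes, so these spreads were not compared at a like precision. With library totals instead of TMM factors, which moved the median of all genes to -0.15, none rose and 6 fell (UTP20, WDR43, HEATR1, DDX21, NOC3L and TSR1), where 26% of all genes were called, so the split of directions depends on the scaling, although each of the 8 kept its sign. The 6 that had risen then stood at 0.15 to 0.27.

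Beside these factors, other genes in the same marrow libraries moved further. Of 33 tested proliferation genes, 33 fell, with a median of -1.17, and their summed level was 4306 and 4420 CPM with vehicle and 1889 and 2198 CPM with gilteritinib. Of 78 cytosolic ribosomal protein genes, the building blocks on which the factors act, 68 rose, with a median of 0.45, and 48 rose with library totals, with a median of 0.30. Fold changes in marrow also went with gene length, as given below. No value with that trend taken out is given for the ribosomal protein genes, so its part in their rise was not tested. The proliferation marker MKI67 fell by 1.01 on the log2 scale (SE 0.12), and MYC rose by 0.39 (SE 0.11, edgeR adjusted p = 0.0096, but 0.14 with library totals). Leukaemia cell markers summed to 4259 and 4331 CPM with vehicle and to 6991 and 7265 CPM with gilteritinib, lymphoid markers to 76.5 and 90.2 against 114 and 125 CPM, and stromal markers to 252 and 241 against 303 and 309 CPM. Most of the difference in the leukaemia markers was LYZ, the gene of lysozyme, at 1663 and 1857 CPM with vehicle and 3856 and 4526 CPM with gilteritinib. The other 14 summed to 2595 and 2473 against 3134 and 2739 CPM; 7 of them were higher in both gilteritinib libraries, 1 (MEIS1) was lower, at 29.8 and 28.6 against 21.8 and 20.7 CPM, and 6, PTPRC and FLT3 among them, overlapped. Nearly all counts of the stromal sum were PECAM1. It held 8175 of 8486 and 3787 of 3934 with vehicle, and 4662 of 4720 and 6362 of 6420 with gilteritinib. PDGFRB went the other way, at 279 and 143 counts with vehicle and 45 and 57 with gilteritinib. The remaining stromal genes had 0 to 26 counts in each marrow library. The lymphoid sum was mostly NKG7 and GNLY. The part of these shifts in the members' values was not tested.

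RNA polymerase I and its initiation factors gave no call. POLR1A, the largest catalytic subunit, stood at 43.3 and 50.03 CPM in marrow with vehicle (standard, then ketogenic diet) and at 43.8 and 36.2 with gilteritinib, and at 42.6, 33.6, 41.2 and 33.1 CPM in the same order in the libraries labelled liver. POLR1B, the second catalytic subunit, had 40.0, 37.3, 43.5 and 31.4 CPM in marrow and 35.1, 41.7, 37.3 and 33.9 CPM under the liver label. The drug groups overlapped for POLR1A and POLR1B under both labels. UBTF, which binds and opens the ribosomal DNA, had 108, 114, 93.4 and 89.4 CPM in marrow and 107, 94.0, 101 and 95.1 CPM under the liver label. UBTF was lower in both gilteritinib marrow libraries, yet its fitted change of -0.13 (SE 0.11) missed the threshold (edgeR adjusted p = 0.44). RRN3, which brings the polymerase to the promoter, had 58.4, 60.5, 60.5 and 45.5 CPM in marrow and 43.4, 55.7, 52.3 and 55.1 CPM under the liver label. For RRN3 only the marrow library with gilteritinib and ketogenic diet lay apart from the other marrow libraries, and the fitted change was -0.03 (SE 0.12, edgeR adjusted p = 0.91). POLR1A changed by -0.07 (SE 0.13) and POLR1B by 0.09 (SE 0.13).

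The genes of the nucleolar proteins NCL, NPM1, NOLC1 and TCOF1 did not pass the test either. NCL, an RNA-binding protein of the nucleolus, had 1119.6, 1127, 1204 and 1048 CPM in marrow and 1026, 1087, 1123 and 1249 CPM in the libraries labelled liver. NPM1 had 1409.8, 1302, 1287 and 1224 CPM in marrow and 1255, 1474, 1352 and 1500.3 CPM under the liver label. NPM1 was lower in CPM in both gilteritinib marrow libraries, while after TMM scaling its change was 0.04 (SE 0.11, edgeR adjusted p = 0.85). That of NCL was 0.15 (SE 0.11, edgeR adjusted p = 0.37). NOLC1, a chaperone of small nucleolar particles, and TCOF1, a cofactor of ribosomal DNA transcription, changed by 0.05 and -0.13.

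Among the proteins of small nucleolar particles, RRP9 and NOP10 rose. RRP9 (ENSG00000114767), a component of the U3 particle that starts precursor cleavage, had 36.7 and 36.8 CPM in marrow with vehicle and 42.9 and 45.8 with gilteritinib, and 41.3, 40.2, 37.3 and 41.4 CPM in the libraries labelled liver. Both gilteritinib libraries lay above both vehicle libraries in marrow, with a log2 fold change of 0.42 (SE 0.12, edgeR adjusted p = 0.011). With each library's trend on exon length taken out, RRP9 stood at 0.23 and was not called (edgeR adjusted p = 0.13). NOP10 (ENSG00000182117), a small core protein of the H/ACA particles that convert uridine to pseudouridine, had 117, 116, 125 and 133 CPM in marrow and 128, 124, 122 and 139 CPM under the liver label. The marrow drug groups did not overlap, and the log2 fold change was 0.29 (SE 0.11, edgeR adjusted p = 0.044). NOP10 was called in 4 of 15 other settings, and with the length trend taken out its direction reversed, to -0.20 (edgeR adjusted p = 0.14). The box C/D methyltransferase FBL, at 425, 412, 435 and 453 CPM in marrow and 404, 436, 425 and 479.5 CPM under the liver label, lay higher in both gilteritinib marrow libraries but missed the threshold (log2 fold change 0.23, SE 0.11, edgeR adjusted p = 0.12). DKC1, the pseudouridine synthase of the H/ACA particle, had 147, 134, 137 and 125 CPM in marrow and 130.4, 153, 134 and 159 CPM under the liver label. Its drug groups overlapped under both labels, and its change in marrow was 0.05 (SE 0.11, edgeR adjusted p = 0.79).

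Small subunit factors held the members that fell and 1 that rose. UTP20 (ENSG00000120800), a large scaffold protein of the early small subunit precursor, had 41.0 and 40.5 CPM in marrow with vehicle and 34.2 and 22.6 with gilteritinib, and 27.6, 39.0, 37.1 and 31.5 CPM in the libraries labelled liver. WDR43 (ENSG00000163811), a small subunit factor that is also needed for transcription of ribosomal DNA, had 70.8, 67.6, 55.1 and 41.3 CPM in marrow and 53.2, 66.3, 53.5 and 55.4 CPM under the liver label. In both genes the gilteritinib marrow libraries lay under the vehicle ones, and the library with ketogenic diet was the lower of the pair. UTP20 fell by 0.39 (SE 0.13, edgeR adjusted p = 0.029) and WDR43 fell by 0.38 (SE 0.12, edgeR adjusted p = 0.015) on the log2 scale. With 1 marrow library left out, the value of a gene is the drug's ratio within the diet that keeps both marrow libraries. UTP20 stood at -0.67 without vehicle and standard diet and -0.66 without gilteritinib and standard diet, but at -0.14 without either ketogenic marrow library. WDR43 stood at -0.54 and -0.53 without the same standard diet libraries and at -0.24 without either ketogenic one. With the length trend taken out UTP20 stood at -0.28 and was not called (edgeR adjusted p = 0.073). RRP12 (ENSG00000052749), which acts in subunit export, had 123, 143, 168 and 140.0 CPM in marrow and 133, 131, 116 and 127 CPM under the liver label. The marrow drug groups of RRP12 overlapped in CPM, the difference being larger with the standard diet, and its log2 fold change was 0.35 (SE 0.11, edgeR adjusted p = 0.017). It stood at 0.14 without vehicle and standard diet, 0.15 without gilteritinib and standard diet, and 0.57 without either ketogenic marrow library. Over all 13 small subunit factors the median was -0.11, with values from -0.39 to 0.35. Of the 13, 23.1% were called, where 20.3% of all tested genes were.

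Of the 14 tested large subunit factors, 3 rose and none fell, with a median of 0.14. That is 21.4% called, where 20.3% of all tested genes were. With library totals none of these 3 was called. BOP1 (ENSG00000261236), which acts in a trimer with PES1 and WDR12, had 174, 188, 219 and 203 CPM in marrow and 189, 184, 195 and 198 CPM in the libraries labelled liver. NOP16 (ENSG00000048162), a nucleolar factor of the early large subunit precursor, had 68.1, 69.7, 80.5 and 82.4 CPM in marrow and 73.6, 91.4, 72.5 and 106 CPM under the liver label. RRS1 (ENSG00000179041), a regulator of large subunit assembly, had 45.3, 44.6, 54.9 and 50.9 CPM in marrow and 58.8, 59.5, 48.7 and 66.2 CPM under the liver label. All 3 genes were higher in both gilteritinib marrow libraries than in either vehicle library. The log2 fold changes were 0.37 for BOP1 (SE 0.11, edgeR adjusted p = 0.0087), 0.39 for NOP16 (SE 0.11, edgeR adjusted p = 0.0091) and 0.38 for RRS1 (SE 0.12, edgeR adjusted p = 0.017). The partners of BOP1 did not pass the test: PES1 changed by 0.22 (SE 0.11) and WDR12 by -0.01 (SE 0.12). Some exon bases of NOP16 lie under genes on the other strand, 7.9% of them under HIGD2A, which had 34353 counts against 13748 for NOP16, so without a known strand setting its count is uncertain.

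Counted without a model, 8 members had gilteritinib marrow libraries that both lay above both vehicle libraries in CPM and 15 had them both below, where 17.8% and 43.5% of all tested genes did. With TMM-scaled CPM the counts were 16 above and 8 below, where 28.5% and 29.3% of all tested genes were. Within the standard diet 32 of 46 members were higher with gilteritinib, and within the ketogenic diet 24 of 46, with the same sign in both diets for 30. The median log2 ratios (standard, then ketogenic diet) were 0.10 and 0.03 for members and -0.002 and -0.008 for all genes. The share of all genes with the same sign was not counted, so whether the members differ from it is not known.

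Fewer members, and fewer genes in all, were called with 1 marrow library left out of a fit of all 8. Without vehicle and standard diet 4 members were called (0 higher, 4 lower, 2 of them among the original 8), where 11.8% of all genes were. Without gilteritinib and standard diet 3 were called (0 higher, 3 lower, 1 of the original 8), where 11.6% of all genes were. Without vehicle and ketogenic diet, and without gilteritinib and ketogenic diet, RRP12 alone was called, where 5.91% and 5.83% of all genes were. DESeq2 called 1 member (BOP1) and 10.3% of genes, and limma-voom called the same 8 members and 18.7% of genes.

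**Figure D3:**
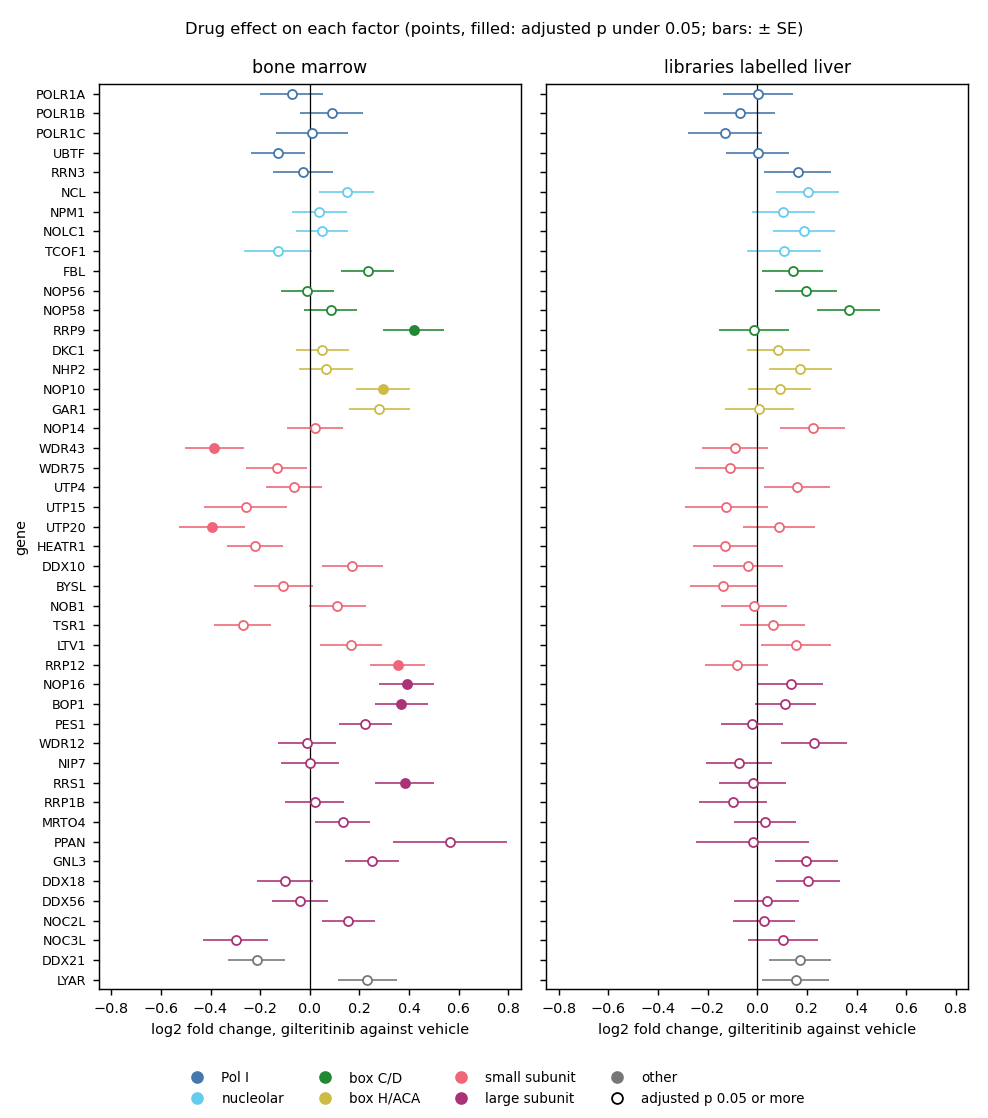
Log2 fold change of each tested member with gilteritinib against vehicle in marrow (left) and in the libraries labelled liver (right), ordered and coloured by role; bars are ± SE, and filled points have an adjusted p under 0.05. The 8 filled points in marrow lie between -0.39 and 0.42, and the right panel has none.

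Fold changes in marrow went with gene length. Across the 46 members, the log2 fold change with the drug had a Spearman correlation of -0.56 with merged exon length, and across 6595 other protein-coding genes at a log2 CPM of 4 or more it was -0.25; genes of these libraries share depth and RNA quality and are not independent. The 5 members with exons under 2000 bases had a median of 0.29, where other genes had 0.20, and the 14 members from 2000 to under 4000 bases had a median of 0.18, where other genes had 0.02. The 15 members from 4000 to under 6000 bases had a median of -0.03, where other genes had -0.07, and the 12 members of 6000 bases or more had a median of -0.09, where other genes had -0.10. Of the 6 that rose, RRP9, RRS1 and NOP10 were under 2000 bases, while RRP12, at 8529 bases, was long. With each library's trend on length taken out, 6 members were called, where 20.2% of all genes were, of which BOP1, NOP16, RRP12 and WDR43 had been called before and GNL3 and PES1 had not. RRP9, RRS1, NOP10 and UTP20 were no longer called, and RRS1 stood at 0.22 (edgeR adjusted p = 0.14). NOP10, whose direction reversed, was the shortest at 554 bases.

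**Figure D4:**
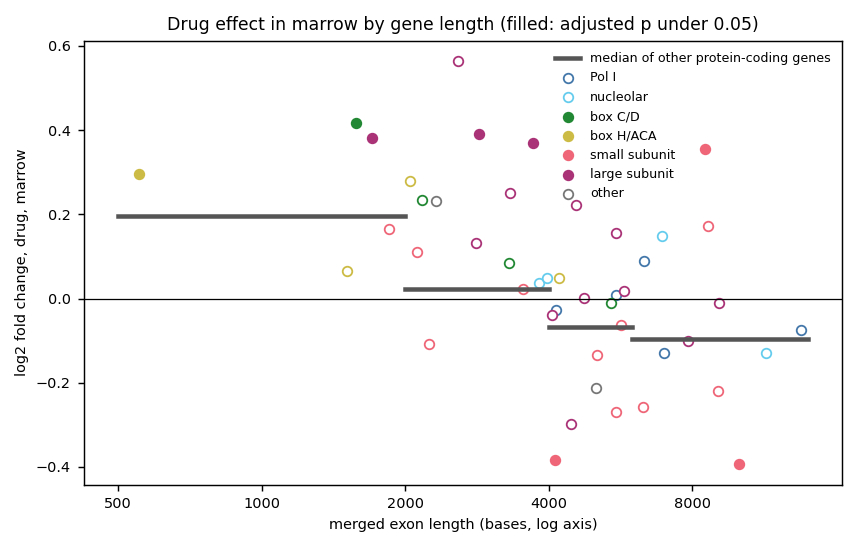
Log2 fold change with gilteritinib in marrow against merged exon length (log axis) for 46 members, coloured by role and filled at an adjusted p under 0.05. Grey bars mark the median of other protein-coding genes in 4 length ranges, from 0.20 under 2000 bases to -0.10 at 6000 bases or more.

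The other genes of the pathway, 126 tested, showed 10 higher and 10 lower with the drug in marrow, with a median of -0.02, and 3 higher and 29 lower with library totals. With TMM factors 15.9% of them were called, where 20.3% of all tested genes were. With library totals 26% of all tested genes were called. The largest increases were NOP53, a large subunit factor, at 0.76 (SE 0.11), the polymerase I subunit POLR1H at 0.53 (SE 0.12) and the exosome subunit EXOSC5 at 0.52 (SE 0.12). Lowest were POLR1F, another polymerase I subunit, at -0.77 (SE 0.14), TAF1A, a subunit of the promoter selectivity factor, at -0.72 (SE 0.23), and the exosome subunit EXOSC8 at -0.60 (SE 0.12). Among the other 15 polymerase I genes 3 rose and 3 fell, or 40% called, where 20.3% of all tested genes were. None of the 5 polymerase I members was called, and whether they differ from the other 15 was not tested.

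In the libraries labelled liver, no member passed the threshold with gilteritinib. edgeR called 0 of 46, where 2.26% of 14092 tested genes were called, 1 member had an unadjusted p under 0.05, where 10.6% of all genes had, and DESeq2 and limma-voom called 0. That member was NOP58, a core box C/D protein, with 108, 132, 150.1 and 149 CPM in the libraries labelled liver and 144, 125, 141 and 117 CPM in marrow. Its gilteritinib libraries lay above the vehicle ones under the liver label, at a log2 fold change of 0.37 (SE 0.13, edgeR adjusted p = 0.11), and it was called once the length trend was taken out (edgeR adjusted p = 0.046), where 2.36% of all genes were. The median of the members was 0.07, against 0.00 for all genes. NCL changed by 0.20 (SE 0.13), NPM1 by 0.11 (SE 0.13), FBL by 0.14 (SE 0.12) and DKC1 by 0.09 (SE 0.13), and none of these passed the test. Among polymerase I genes, POLR1A changed by 0.00 (SE 0.14), POLR1B by -0.07 (SE 0.14), UBTF by 0.00 (SE 0.13) and RRN3 by 0.16 (SE 0.14). MYC stood at -0.25 (SE 0.13) and MKI67 at -0.20 (SE 0.13), neither of them called. Here 0 of 77 ribosomal protein genes and 3 of 33 proliferation genes were called, the latter all lower.

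Whether the drug effect differed between the labels was tested as a contrast of separate drug terms in a fit of all 8 libraries. No member was called, where 2.49% of 14749 genes were, 4 had an unadjusted p under 0.05, where 15.1% of all genes had, and DESeq2 and limma-voom called 0. The 4 were RRP12 at -0.44 (SE 0.16), RRP9 at -0.43 (SE 0.18), RRS1 at -0.40 (SE 0.18) and UTP20 at 0.48 (SE 0.22), as liver label minus marrow. DDX21 was called in this contrast without marrow vehicle and standard diet (0.69) or without marrow gilteritinib and standard diet (0.69), fits that called 3.06% and 3.07% of all genes. Of the 33 proliferation genes, 30 were called in the same contrast, all with a higher drug value under the liver label than in marrow. In the fit of the liver label alone, 6 of the 33 had a value above 0. Of the 78 ribosomal protein genes 0 were called in the contrast, with 45 at an unadjusted p under 0.05. MYC differed by -0.64 (SE 0.16, edgeR adjusted p = 0.033, but 0.12 with library totals) and MKI67 by 0.80 (SE 0.20, edgeR adjusted p = 0.035).

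Over all 8 libraries, with label, drug and diet as terms, no member passed the threshold for the drug. edgeR called 0 of 46, where 4.92% of 14749 genes were called; 9 members had an unadjusted p under 0.05, 8 of them higher, or 19.6% against 22.7% of all genes, and DESeq2 and limma-voom called 0. BOP1 came nearest, at 0.24 (SE 0.083, edgeR adjusted p = 0.10). Without the library labelled liver with vehicle and standard diet, 4 members were called (BOP1 and NOP10 higher, WDR43 and UTP20 lower), where 13.8% of all genes were, and without that with gilteritinib and standard diet, NOP16 was, where 6.99% of all genes were. Of the other pathway genes, EXOSC5 rose by 0.37 (SE 0.093), and POLR1F fell by 0.58 (SE 0.11) and MAK16, a large subunit factor, fell by 0.42 (SE 0.095).

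With ketogenic diet in marrow, no member passed the threshold. edgeR called 0 of 46, where 0.492% of 14029 genes were called, 5 had an unadjusted p under 0.05, or 10.9% against 9.32% of all genes, and DESeq2 and limma-voom called 0. The members' median was -0.08 against 0.00 for all genes, and 14 of 46 had a positive value, where 50.6% of all tested genes had. DDX21, a nucleolar helicase that acts in transcription and processing of ribosomal RNA, came nearest: it had 328 and 296 CPM with vehicle (standard, then ketogenic diet) and 320.0 and 183 CPM with gilteritinib. Ketogenic libraries were the lower ones in each pair, but only the one with gilteritinib lay far below the rest. The log2 fold change was -0.43 (SE 0.12, edgeR adjusted p = 0.092). DDX21 passed with counts thinned to the smallest library, with the length trend taken out, and without either vehicle marrow library (-0.73 in each), where the value is the ratio within gilteritinib alone. With the length trend taken out 1.21% of all genes were called, and without those libraries 0.888% and 0.87%. In this comparison the other pathway genes had a median of -0.05, with 43 of 126 positive. Ribosomal protein genes had a median of 0.07 and proliferation genes of 0.14.

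In the libraries labelled liver the ketogenic diet raised 1 of 46 members, NOP16, where 1.01% of 14092 genes were called and 6 members had an unadjusted p under 0.05, or 13% against 10.4% of all genes. Under that label NOP16 had 73.6 and 72.5 CPM with standard diet and 91.4 and 106 CPM with ketogenic diet, groups that did not overlap. Its log2 fold change was 0.46 (SE 0.13, edgeR adjusted p = 0.042), and it was not called without any 1 of the 4 libraries, by DESeq2, with library totals or with the length trend taken out. DESeq2 called 0.186% of genes there, and fits without 1 library called 0.00688% to 0.156%. A positive value was found in 40 of 46 members, with a median of 0.12, where 50.4% of all tested genes were positive and the median was 0.00. The other pathway genes had a median of 0.08, with 89 of 126 positive, and ribosomal protein genes 0.14, with 74 of 77 positive; none of either was called. Log2 fold changes also fell with exon length here, at a Spearman correlation of -0.45 across members and -0.34 across other genes.

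The 2 diet comparisons use different libraries, and the members' medians lay on opposite sides of 0. As a contrast of separate diet terms, liver label minus marrow, the members' median was 0.23 against -0.01 for all genes. In it 37 of 46 members were positive, where 48.6% of all tested genes were. No single member was called (0 of 46 by edgeR, where 0% of 14749 genes were; 0 by DESeq2 and limma-voom), and 9 had an unadjusted p under 0.05, or 19.6% against 4.83% of all genes. In the same contrast the other pathway genes had a median of 0.10, with 99 of 126 positive, and the ribosomal protein genes one of 0.07, with 64 of 78 positive. UTP15, a small subunit factor, had the largest of these at 0.57 (SE 0.24), and TCOF1, at -0.47 (SE 0.20), was the only 1 of the 9 below 0. With any 1 library left out the median stayed between 0.15 and 0.30.

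**Figure D5:**
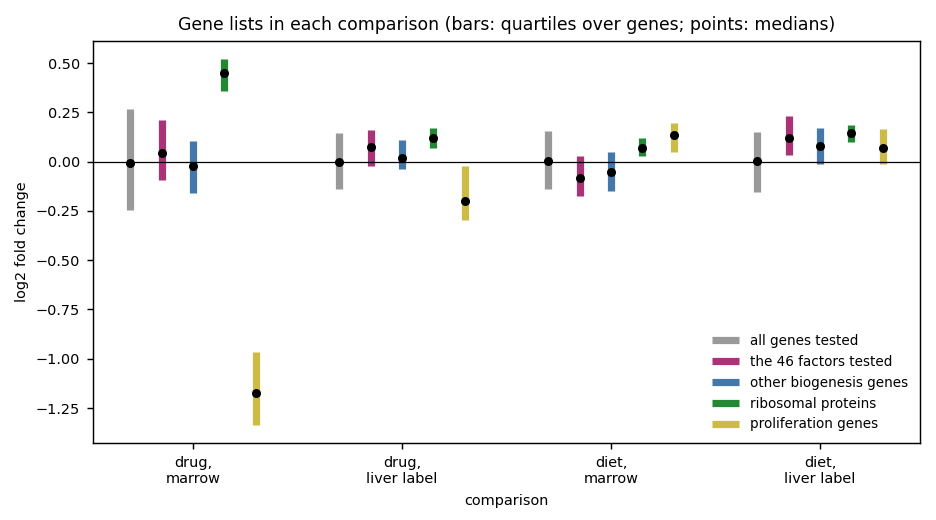
Median (point) and quartiles over genes (bar) of log2 fold changes for all genes tested, the 46 members, other ribosome biogenesis genes, ribosomal protein genes and proliferation genes, for drug and diet under each tissue label. In marrow with the drug, proliferation genes lie at -1.17 and ribosomal protein genes at 0.45, with the members at 0.04 between them. The trend on gene length was not taken out of these values.

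Diet over all 8 libraries gave no call among the members (0 of 46 by edgeR, DESeq2 and limma-voom, where edgeR called 0.136% of 14749 genes). NOP16 at 0.28 (SE 0.10) and PPAN at 0.46 (SE 0.16) had an unadjusted p under 0.05, where 9.23% of all genes had. Between the tissue labels, 0 of 46 members were called by edgeR, DESeq2 and limma-voom, where edgeR called 0% of 14749 genes. POLR1C, a subunit shared by polymerases I and III, differed most among the 4 with an unadjusted p under 0.05 (8.7%, against 13.7% of all genes), at 23.0, 22.1, 18.8 and 22.3 CPM in marrow and 30.2, 29.8, 23.0 and 30.8 CPM under the liver label. In CPM all 4 libraries labelled liver lay above the 4 marrow libraries, that with gilteritinib and standard diet only marginally. After TMM scaling the groups overlapped, this library lying at -0.11 from the gene's mean log2 CPM and marrow with gilteritinib and ketogenic diet at -0.03, and the log2 difference was 0.40 (SE 0.11, edgeR adjusted p = 0.19). On the other strand, XPO5 covers 6.3% of the exon bases of POLR1C and had 11194 counts against 4254. Without a known strand setting the count of POLR1C is uncertain. For a drug effect that differs between diets, edgeR called 0 of 46 members and 0% of 14749 genes, with 2 members, or 4.35%, at an unadjusted p under 0.05 against 4.79% of all genes, and 0 called by DESeq2 and limma-voom. These were DDX21, at -0.59 (SE 0.22), and POLR1C, at 0.44 (SE 0.19), as ketogenic minus standard diet. In DDX21 the log2 ratio of gilteritinib to vehicle was 0.08 with standard and -0.51 with ketogenic diet in marrow, and 0.50 and -0.15 under the liver label.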

How the data were processed

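RNA was measured in 8 libraries. The deposited table holds raw counts per gene, as whole numbers, with no normalization by the authors. The submitters' processing notes name STAR 2.7.3a and the build GRCh38. How reads were counted, with which strand setting, and whether mouse reads were set apart is not given in the sources used here. Groups came from the labels. The members and lists were chosen with earlier results of these data known. Genes with at least 10 counts in 2 or more libraries of the fit were tested with edgeR 4.0.16 (R 4.3.3; TMM factors, robust dispersion, bias-adjusted quasi-likelihood), per label with drug and diet as terms (1 residual degree of freedom, so p-values lean on the spread shared across genes), or over all 8 libraries. Benjamini-Hochberg adjustment covered all genes tested, two-sided, with a threshold of 0.05. CPM used library totals; log2 CPM used TMM factors and a prior count of 2. Merged exon lengths came from GENCODE 29, which holds 96.42% of the identifiers, and promoter windows from RefSeq (GRCh38.p14).

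Other settings tried were limma-voom (limma 3.58.1), DESeq2 1.42.0, thinned counts, each library left out, and changed scalings, filters and terms; removal of each library's length trend was added after seeing the data. With a library left out, its label keeps no spread of its own and the lone library is assumed to vary like the others. For drug or diet within that label, the value is then the ratio of the pair that remains. Leaving out either library of a pair therefore gives nearly the same value. Named genes were, per comparison and direction, up to 12 called members, 8 members always given for the drug, MYC and MKI67, and up to 3 called pathway genes; PPAN, NOP2, NOP58, DDX21, POLR1C, UTP15, TCOF1, PES1 and WDR12 and other members given outside that rule were chosen after their values were seen.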

Additional observations from a re-analysis of the deposited data

How the results depend on the processing

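The count of members called by the drug in marrow was 8, and 6 to 8 under limma-voom, size factors, library totals, the filter at 50 counts, the older quasi-likelihood fit, thinned counts, separate terms in a fit of all 8 libraries and the length trend removed, where 16.7% to 26% of all genes were called. With library totals the 6 were all lower and 2 of them were among the 8. The count was 1 with DESeq2, 0 without a count filter (14 at an unadjusted p under 0.05), 3 with no term for diet, and 1 to 4 with 1 marrow library left out. Calls over all genes, 2850 in the reported fit, fell as well in these settings, to 1170, 1221, 1671 and 853 to 1714. NOP10 turned to -0.20 with the length trend removed. Among the 8, BOP1, RRP12 and WDR43 were each called in 9 of 15 other settings, NOP16 and UTP20 in 8, RRP9 in 7, RRS1 in 6 and NOP10 in 4.

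The drug count in the libraries labelled liver was 1 (NOP58) with the length trend removed and 0 in the other settings. The diet count in marrow was 1 (DDX21) with thinned counts and with the length trend removed, and 0 to 1 with 1 library left out. NOP16 was the 1 member called by diet in the libraries labelled liver; the count was 0 with DESeq2, library totals, no count filter, no term for the drug, separate terms in a fit of all 8 libraries, the length trend removed, and each of the 4 libraries left out (0 to 0). Over all 8 libraries the drug count was 0 to 4, and that for a drug effect that differs between labels 0 to 1, with 1 library left out. The other comparisons of all 8 libraries stayed at 0 in the settings run. The cause of these changes was not tested.

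No paired analysis was possible because each group has 1 library and so no replicate number to share; the fits within a label compare the drug within each diet through the diet term. With 1 to 2 residual degrees of freedom for effects within a label and a median log2 standard error of 0.12 for members in marrow and 0.13 under the liver label, most of the members' changes were not detectable beyond that error.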
